A study of Monodelphis domestica and Mus musculus and Sus scrofa with 73 samples.

Results

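Among the genes measured in developing limbs of the bat Carollia perspicillata, 27 had group means that turned at stage 14 in both limbs. Of these, 7 had a peak and 20 a dip. They were selected on their measured values from 27026 genes, of which 11752 passed a minimum mean length of 1000 bases and a minimum mean of 1 CPM. CPM is a gene's expected count, scaled so that the expected counts of its library sum to 1000000. Levels were averaged per group as log2(CPM + 0.5). A peak gene was at least 0.7 higher at stage 14 than at stage 13 and at least 0.7 lower at stage 15 than at stage 14, in the forelimb and in the hind limb. A dip gene met the same limits in the opposite direction. Because these steps chose the genes, they are described below and not tested.

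The tables cover whole forelimbs and hind limbs of untreated embryos from field collections in Trinidad, harvested at stages 13, 14 and 15. The study's design calls these the ridge, bud and paddle stages. RNA from each limb type and stage was sequenced in 3 libraries at stage 13, 3 at stage 14 and 2 at stage 15, which gives 16 libraries. Of the forelimb libraries, 2 at stage 14 carry the label ES (early stage), both at stage 15 carry the label LS (late stage), and the others carry stage numbers. The animals were wild and carry no engineered allele. The labels give neither the sex nor the litter of the embryos, and nothing in them says that replicates came from separate embryos, so the p-values below measure the spread between these libraries, which may be partly technical.

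A vertebrate limb starts as a bud of mesenchyme under an ectodermal cap, and a thickened ridge along its edge drives outgrowth. The bud then flattens into a paddle, in which cells condense into cartilage models of the digits. In bats the forelimb later forms long digits joined by a wing membrane, while the hind limb forms a small clawed foot. A gene is said here to peak or dip at the bud stage where its group means change and then turn back across this sequence. In some members, single forelimb libraries of stages 13 and 15 stood at the stage 14 level. In RNA from whole limbs, fewer cells of a type and less RNA per cell cannot be told apart.

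The tables name genes by assembly identifiers, which were not paired with gene names in the sources used here. Roles of the members are therefore not given, and limb marker genes could not be checked. Identifiers are printed for 4 members, and the others are told apart by their length in bases. A gene of this assembly can hold several isoforms, and the split of reads between near-identical genes is uncertain.

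Library depth, the sum of expected counts, ranged from 13600741 to 61814821 with a median of 22714005. At these depths 3 counts are worth from 0.0485 to 0.221 CPM, which is a limit of counting error only. Short genes under 300 bases were detected more often in some libraries. The share of them with a count was from 23.1% to 25.7% in the 3 hind limb stage 13 libraries and forelimb stage 13 replicate 3, 19.8% in hind limb stage 14 replicate 3, and from 6.36% to 13.6% in the other libraries. No member is that short, and the part of this difference in the members' values was not tested.

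The shape was shared by a minority of the genes that had it in either limb. The forelimb had 29 peak genes and the hind limb 36, and the 7 shared genes were 24.1% of the first list and 19.4% of the second. There were 73 dip genes in the forelimb and 122 in the hind limb, and the 20 shared genes were 27.4% and 16.4% of these lists. In a single gene the limbs turned in opposite directions, with a forelimb dip and a hind limb peak. The members closest to the limit had a smallest step of 0.828 and 0.838 among peak genes and of 0.727 and 0.744 among dip genes. Just outside it, the largest values were 0.690 and 0.681 for peaks and 0.644 and 0.639 for dips. All 4 steps reached 1 in 3 peak and 6 dip members.

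**Figure D1:**
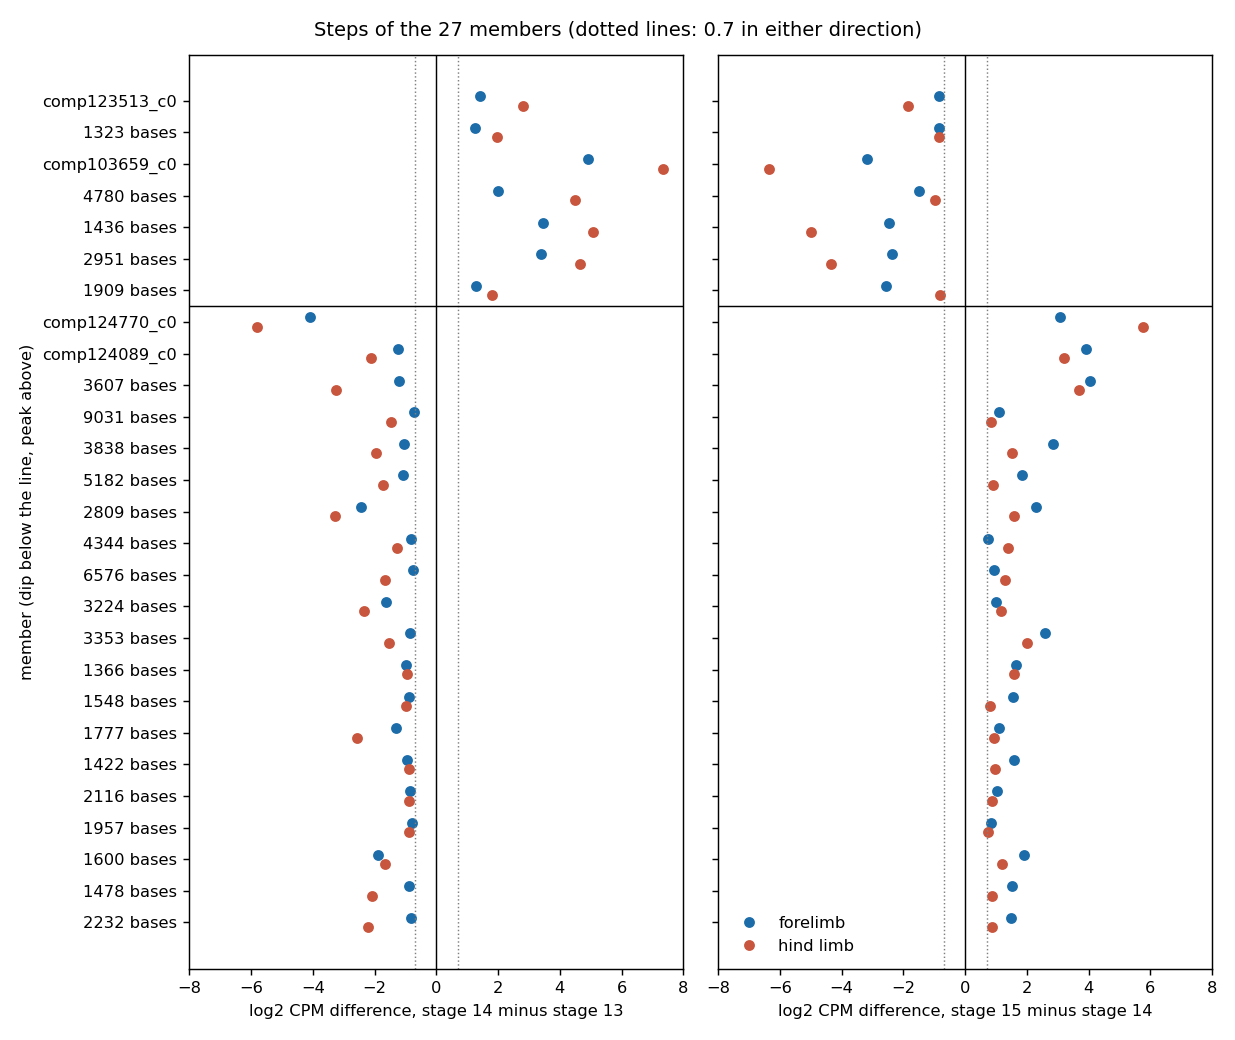
Step of each member from stage 13 to 14 (left) and from stage 14 to 15 (right), as a difference of group means of log2(CPM + 0.5), with forelimb in blue, hind limb in red and dotted lines at the limit of 0.7. Peak members, above the horizontal line, move right and then left, with hind limb rises from 1.79 to 7.34, and dip members do the reverse.

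The peak gene with the largest steps, comp103659_c0 (3403 bases, 18 isoforms), was near 0 in 8 libraries and high in 8. It measured 98.2, 92.5 and 122 CPM in the hind limb at stage 14, against 0.123, 0.353 and 0 CPM at stage 13 and 0.402 and 1.30 CPM at stage 15. In the forelimb at stage 14 it measured 148, 116 and 98.6 CPM. Forelimb stage 13 did not hold together, with 97.1 CPM in replicate 2 and 0.339 and 0.294 CPM in the other replicates. Forelimb stage 15 divided in the same manner, with 0.696 CPM in replicate 1 and 147 CPM in replicate 2. The hind limb groups therefore did not overlap, whereas in the forelimb a library of stage 13 and a library of stage 15 stood at the stage 14 level.

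The other named peak gene, comp123513_c0 (2092 bases, 52 isoforms), kept a substantial level everywhere. It ranged from 192 to 260 CPM in the hind limb at stage 14, from 20.3 to 38.9 CPM at stage 13 and from 55.0 to 66.4 CPM at stage 15. In the forelimb it ranged from 196 to 222 CPM at stage 14. The forelimb libraries that stood apart were the same: at stage 13 replicate 2 measured 257 CPM against 43.6 and 43.5 CPM, and at stage 15 replicate 2 measured 205 CPM against 67.2 CPM.

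The dip gene with the largest steps, comp124770_c0 (12907 bases, 14 isoforms), was the reverse image. It measured 570, 955 and 1101 CPM in the hind limb at stage 13, then 24.0, 16.4 and 7.81 CPM at stage 14, then 861 and 764 CPM at stage 15. In the forelimb it was at 11.7, 22.8 and 14.9 CPM at stage 14. Replicates 1 and 3 of forelimb stage 13 measured 868 and 1339 CPM and replicate 2 only 17.8 CPM, while forelimb stage 15 measured 892 CPM in replicate 1 and 21.0 CPM in replicate 2. This is again a hind limb pattern without overlap and a forelimb pattern in which replicate 2 of stage 13 and replicate 2 of stage 15 stood at the stage 14 level.

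**Figure D2:**
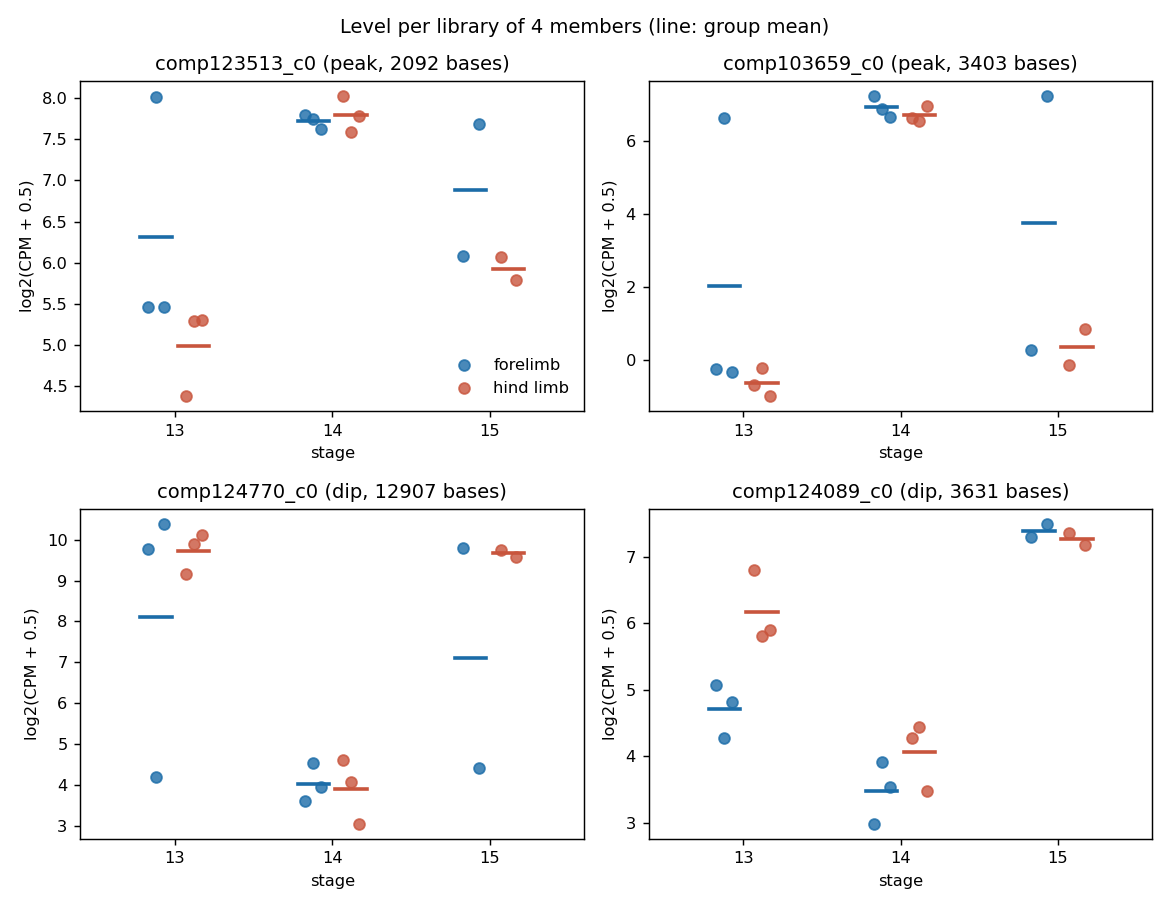
Level of the 4 members named by identifier in each library, as log2(CPM + 0.5), by stage, with forelimb in blue, hind limb in red and a line at each group mean. In comp123513_c0, comp103659_c0 and comp124770_c0 a single forelimb point at stage 13 and a single one at stage 15 lie among the stage 14 points, while comp124089_c0 has no such point.

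In all, 5 members divided the 16 libraries into the same 2 sets of 8. Besides the genes above they were the peak gene of 1436 bases and the peak gene of 2951 bases. The 8 libraries in which the peak genes were high were all stage 14 libraries of both limbs, forelimb stage 13 replicate 2 and forelimb stage 15 replicate 2. The 1436-base gene lay between 13.7 and 29.3 CPM in these libraries and between 0 and 0.235 CPM in the other 8. The 2951-base gene, which has a single isoform, lay between 9.57 and 19.9 CPM in them and between 0 and 0.237 CPM in the others. Between the sets the gap on the log2 scale was 5.69 for comp103659_c0, 4.27 and 3.77 for these genes, 1.51 for comp123513_c0 and 4.54 for comp124770_c0. Such a division was rare in the tables. Of 15532 genes that reached 1 CPM in some library, 819 had a gap of at least 1 between neighbouring libraries and 20 of these had 8 libraries above it. The same 8 libraries were above the gap in 7 genes and below it in 1, and 5 of these 8 genes were members. This set holds all stage 14 libraries, so a wide gap goes with steps of the kind that chose the members. The overlap with the members is therefore a description. No label of the samples separates the libraries in this way.

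**Figure D3:**
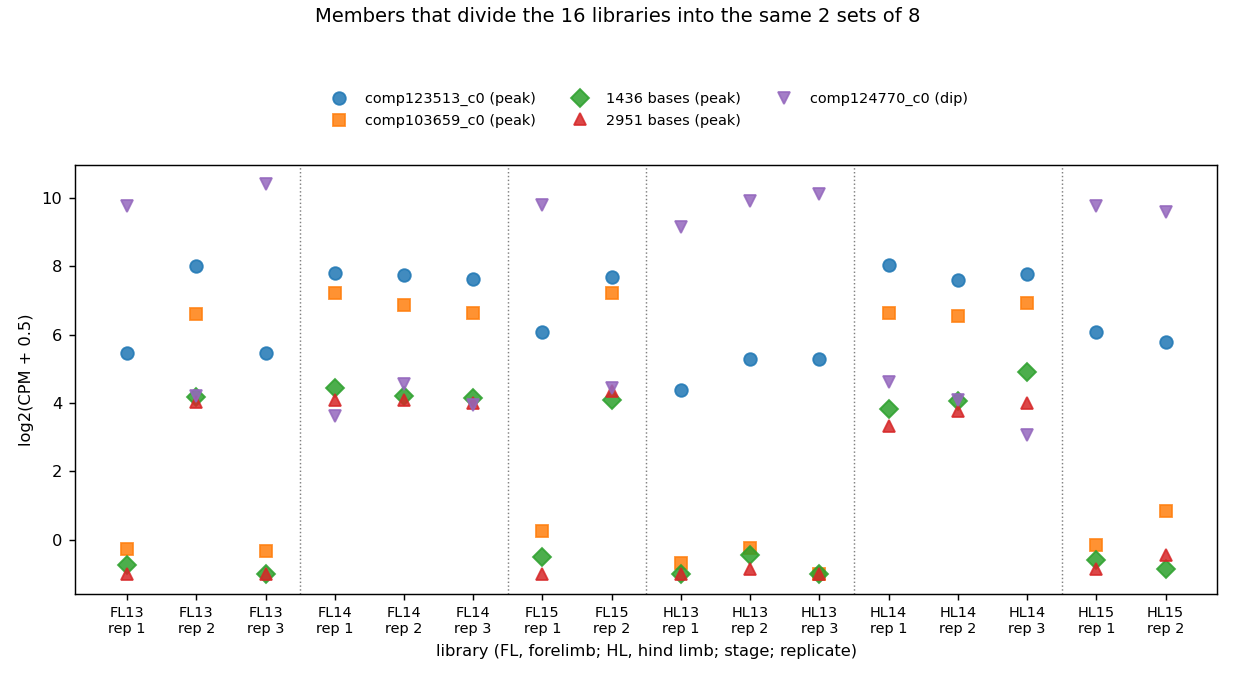
Level of the 5 members that divide the libraries alike, as log2(CPM + 0.5), in each of the 16 libraries, with dotted lines between groups. The 4 peak genes are high and the dip gene comp124770_c0 is low in all stage 14 libraries, in forelimb stage 13 replicate 2 and in forelimb stage 15 replicate 2.

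Of the peak genes outside this set, 2 had stage 14 libraries clear of the rest in both limbs. The 4780-base peak gene (2 isoforms) measured 24.2, 31.3 and 17.5 CPM in the forelimb at stage 13, 110, 84.4 and 93.2 CPM at stage 14, and 33.5 and 33.4 CPM at stage 15. In the hind limb it measured 0.551, 1.94 and 1.11 CPM at stage 13, 33.1, 32.9 and 41.2 CPM at stage 14, and 21.0 and 14.8 CPM at stage 15. The forelimb was above the hind limb at every stage, and no library of one limb overlapped the other at the same stage. Hind limb stage 14 was close to forelimb stage 15, and the values of these 2 groups overlapped.

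The 1323-base peak gene has a single isoform and the smallest spread of all members. Its group means were 55.2 ± 6.45 CPM in the forelimb at stage 13 (SD, n = 3), 132 ± 12.5 at stage 14 (n = 3) and 73.5 ± 5.55 at stage 15 (n = 2). The hind limb means were 24.5 ± 1.49 CPM (n = 3), 97.7 ± 11.1 (n = 3) and 53.5 ± 4.56 (n = 2) at the same stages. The peak stood clear of every other library of its limb, and at stage 15 both limbs were above the highest stage 13 library of their own limb.

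The remaining peak gene, of 1909 bases with 25 isoforms, varied widely between replicates, with an SD of 1.28 on the log2 scale between libraries of a group. Forelimb stage 14 measured 18.7, 5.89 and 15.3 CPM against 3.90, 7.34 and 3.46 CPM at stage 13 and 5.0 and 0.308 CPM at stage 15. Hind limb stage 13 alone measured 0.246, 2.35 and 11.01 CPM, and hind limb stage 14 measured 10.3, 4.01 and 20.3 CPM. Its stage 14 libraries overlapped other stages in both limbs, and its smallest step was under 1 SD between libraries.

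The dip gene comp124089_c0 (3631 bases, 2 isoforms), the most abundant one after comp124770_c0 per length, did not divide the libraries in this way. It measured 32.9, 18.8 and 27.6 CPM in the forelimb at stage 13, 7.40, 14.5 and 11.1 CPM at stage 14, and 156 and 180 CPM at stage 15. In the hind limb it measured 111, 55.6 and 58.9 CPM at stage 13, 18.8, 21.1 and 10.6 CPM at stage 14, and 163 and 145 CPM at stage 15. Stage 14 was below every other library in both limbs, and the recovery at stage 15 went past the stage 13 level in every library. At stage 15 the ranges of the limbs overlapped, whereas at stage 13 all hind limb libraries were above all forelimb libraries.

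Other dip genes of higher level are described by length. The 3838-base dip gene, with a single isoform, measured 14.8, 17.3 and 24.3 CPM at stage 13, 7.23, 8.63 and 10.1 CPM at stage 14, and 67.8 and 62.6 CPM at stage 15. In the hind limb it measured 70.7, 46.2 and 41.6 CPM at stage 13, 12.8 ± 1.62 CPM at stage 14 (mean ± SD, n = 3), and 44.2 and 31.8 CPM at stage 15. The forelimb thus ended above its start, and the hind limb ended within or below its starting range. The 3607-base dip gene, also of a single isoform, rose in the forelimb from between 5.49 and 8.10 CPM at stage 14 to 99.2 and 126 CPM at stage 15, with 24.7, 10.5 and 14.0 CPM at stage 13. Its hind limb replicates were far apart, with 159, 16.6 and 73.6 CPM at stage 13 and 15.6, 7.85 and 1.28 CPM at stage 14.

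The 5182-base dip gene measured 28.8, 21.2 and 21.0 CPM in the forelimb at stage 13, between 10.3 and 11.5 CPM at stage 14, and 40.0 and 40.4 CPM at stage 15. In the hind limb it measured 74.1, 20.0 and 17.6 CPM at stage 13, between 5.81 and 11.3 CPM at stage 14, and 14.6 and 18.3 CPM at stage 15. The 9031-base dip gene had the tightest stage 14 group among the members, from 20.7 to 21.0 CPM in the forelimb, and ranged from 16.8 to 20.6 CPM in the hind limb. Its stage 13 levels were 36.9, 30.1 and 38.1 CPM in the forelimb and 80.3, 38.8 and 43.4 CPM in the hind limb, with 48.2 and 42.7 CPM and 33.1 and 33.0 CPM at stage 15. In both genes hind limb stage 13 replicate 1 was the highest of all 16 libraries.

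The other 14 dip genes lay lower, with means over all libraries from 1.07 to 13.1 CPM. The 2809-base gene was the most abundant and the least even of them, at 38.1, 12.3 and 3.24 CPM in forelimb stage 13 and 93.5, 3.24 and 15.7 CPM in hind limb stage 13. Its forelimb stage 14 libraries, from 0.913 to 3.83 CPM, overlapped stage 13. The 4344-base gene (27 isoforms) was more even, with stage 14 libraries from 4.71 to 6.71 CPM in the forelimb and from 4.36 to 6.75 CPM in the hind limb, and every other library between 8.99 and 17.7 CPM. The least abundant member, of 2232 bases, measured 0.214, 0 and 0 CPM in the forelimb at stage 14, and 2 of these values are counts of 0. In hind limb stage 13 it measured 9.03, 1.29 and 1.06 CPM, so that replicate 1 was far above the others. In all, 10 of the 20 dip genes and none of the 7 peak genes had a mean under 5 CPM.

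Dip members differed from the other genes in abundance and spread. Their median mean level was 4.95 CPM, against 35.9 CPM for peak members and 31.3 CPM for the 11752 genes past the minimums. Per length, the medians were 2.14 FPKM (RSEM's level scaled by gene length and library size) for dip members, 8.31 for peak members and 12.4 for all. Median length was 3017 bases for dip members, 2092 for peak members and 2534 for all, and the median number of isoforms was 2, 15 and 2. The SD between libraries of a group, pooled over the 6 groups, had a median of 0.569 on the log2 scale in dip members and 1.28 in peak members, against 0.246 in all genes. It was above the all-gene median in 20 of 20 dip and 6 of 7 peak members. The smallest step was larger than this SD in 20 of 20 dip and 6 of 7 peak members, and larger than 2 SD in 9 and 2 of them. The rule set a minimum for this step, so these counts are a description. The share over all genes was not counted.

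The median spread of the peak members was largest in the forelimb at stages 13 and 15. This held in the 4 peak genes that divide the libraries. In the 1909-base and 4780-base genes the largest SD was at hind limb stage 13, at 1.97 and 0.608. In the 1323-base gene no group was above 0.166. Over all peak members the median SD on the log2 scale was 1.47 at forelimb stage 13 and 1.96 at forelimb stage 15. It was 0.165 at forelimb stage 14 and between 0.219 and 0.387 in the 3 hind limb groups. For dip members the largest median SD was 0.559, at hind limb stage 13. Hind limb stage 13 replicate 1 was the highest of its group in 15 of 20 dip members and the highest of all 16 libraries in 11. The name of its deposited table carries the year 2011, and those of the other 2 libraries of this group carry 2013; its part in these values was not tested. Hind limb stage 14 replicate 3 was the lowest of its group in 16 dip members and the lowest of all libraries in 9. Without the former the median hind limb step of dip members from stage 13 to 14 was -1.40 in place of -1.70, and without the latter it was -1.51, with 20 of 20 members falling in each case.

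**Figure D4:**
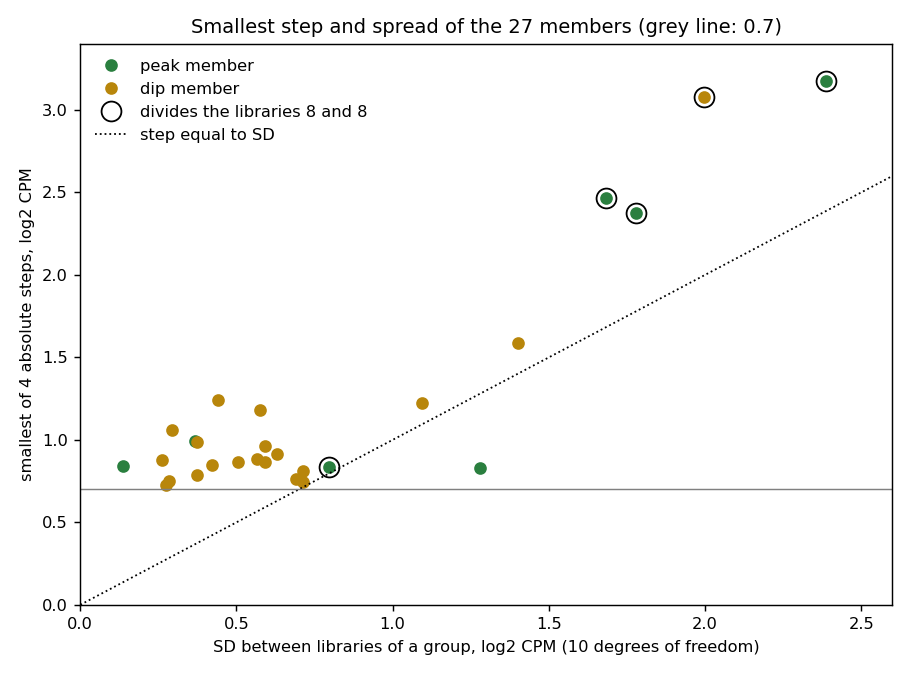
Smallest of the 4 absolute steps of each member against its SD between libraries of a group, both as log2(CPM + 0.5), with peak members in green, dip members in brown, rings on the 5 members that divide the libraries alike, a dotted line where step and SD are equal and a grey line at 0.7. The ringed members reach an SD of 2.39, and only the 1909-base peak gene lies below the dotted line.

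Members whose stage 14 libraries lay wholly on 1 side of stages 13 and 15 were counted. The same contrast chose the members, so the counts are a description. Stage 14 was clear of the other stages in 2 of 7 peak members in the forelimb, where 2.0% of all 11752 genes were, and in 6 of 7 in the hind limb, where 1.42% were. In both limbs at once it was clear in 2 of 7, against 0.119% of genes. Dip members were clear in 16 of 20 in the forelimb (1.93% of genes), in 18 of 20 in the hind limb (3.31%) and in 15 of 20 in both (0.34%). The files also give credibility bounds of FPKM for every gene and library, which describe uncertainty in assigning reads. With these bounds kept apart in place of the values, 2 peak members and 5 dip members were clear in both limbs, where 0.0511% and 0.0425% of genes were. The peak members that passed were the genes of 4780 and 1323 bases.

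The steps were not equal in the limbs. Peak members rose by a median of 1.99 on the log2 scale in the forelimb and 4.49 in the hind limb from stage 13 to 14, and the rise was larger in the hind limb in 7 of 7. This count rested partly on forelimb stage 13 replicate 2. In the 4 peak genes that divide the libraries it stood at the stage 14 level and made the forelimb rise smaller. In the 1436-base gene it measured 17.4 CPM, against 0.102 and 0 CPM in the other replicates. From stage 14 to 15 their median change was -2.37 in the forelimb and -1.87 in the hind limb, although the fall was larger in the forelimb in only 2 of 7. Dip members changed by a median of -0.97 in the forelimb and -1.70 in the hind limb into stage 14, with the larger fall in the hind limb in 17 of 20. Out of stage 14 they rose by a median of 1.58 in the forelimb and 1.17 in the hind limb, and the rise was larger in the forelimb in 16 of 20. These are descriptions of values that chose the genes. Without forelimb stage 13 replicate 2 and forelimb stage 15 replicate 2, the median forelimb steps of peak members were 2.26 and -1.64.

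The 2 label wordings and the lane numbers in the table names let some steps be read among libraries that share a wording or number. A shared lane number alone does not show that libraries were sequenced together. The same libraries chose the members, so the directions below are a description and not a check. The share of all genes moving alike was not counted. Between the stage number libraries of the forelimb (3 at stage 13 and 1 at stage 14), 7 of 7 peak and 20 of 20 dip members moved in the direction of their shape, with medians of 1.96 and -1.12. Between the ES and LS libraries, 2 of each, all members did so too, with medians of -2.39 and 1.57. Under lane number L001, forelimb stage 13 replicate 2 and stage 14 replicate 3 could be compared. Here 4 of 7 peak members and 19 of 20 dip members moved in that direction, with a median of 0.0222 for peaks and -0.818 for dips. This stage 13 library is the one that stood at the stage 14 level in the members that divide the libraries. In comp103659_c0 it measured 97.1 CPM, against 98.6 CPM in forelimb stage 14 replicate 3. The shared lane number and this library cannot be told apart here. In the hind limb from stage 14 to 15, all 27 members moved in the direction of their shape under L001 and under L002. Each of these had 1 library a stage. The other steps could not be read under a shared lane number.

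The difference between limbs at a given stage was not used to choose the genes and was tested. Tests used edgeR's quasi-likelihood method on rounded expected counts, with p-values adjusted by Benjamini-Hochberg over all genes tested and a threshold of 0.05. At stage 13, 24 members had enough counts, and 1 passed, against 0.0747% of all genes tested. This was the 4780-base peak gene, higher in the forelimb by 4.39 on the log2 scale (SE 0.456, edgeR adjusted p = 0.0175). At stage 14 the same gene was the only one of 26 tested members to pass, with the forelimb higher by 1.39 (SE 0.146, edgeR adjusted p = 0.00550), against 0.155% of genes. At stage 15 its difference was 0.89 (SE 0.216) and missed the threshold (edgeR adjusted p = 0.0983). Its calls under the stage 15 alternatives are not counted, because some of these leave 1 library in a group. The stage 13 call was lost without forelimb stage 13 replicate 1 or 2 or hind limb stage 13 replicate 1 or 3, with differences between 4.08 and 4.37, and the adjusted p over 12 alternatives ranged from 1.39e-21 to 0.178. The stage 14 call was lost in 1 of 12 alternatives, the fit of all 16 libraries (adjusted p = 0.0568). The table names of forelimb stage 13 replicate 1 and hind limb stage 13 replicate 3 carry the same year and number, which the sources used here do not explain. The shared number is not the lane number, which is L004 in the former and L006 in the latter.

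At stage 15, 1 of 25 tested members passed, against 0.823% of genes. It was the 5182-base dip gene, with the forelimb higher by 1.28 (SE 0.200, edgeR adjusted p = 0.00753), a call lost in the fit of all 16 libraries. Alternatives that leave out a library are not counted for this call, because 1 limb then has a single library. The 3838-base dip gene was higher in the forelimb by 0.76 (SE 0.182, edgeR adjusted p = 0.0901), which missed the threshold. At this stage the label wording and the limb cannot be told apart, because both forelimb libraries carry the label LS. A fit that leaves out 1 of the forelimb stage 15 replicates has a single forelimb library, which is assumed to vary like the hind limb libraries. For comp103659_c0, comp123513_c0 and comp124770_c0, the forelimb minus hind limb differences were 7.67, 1.75 and -5.27 with replicate 2 alone. With replicate 1 alone they were -0.20, 0.13 and 0.12.

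**Figure D5:**
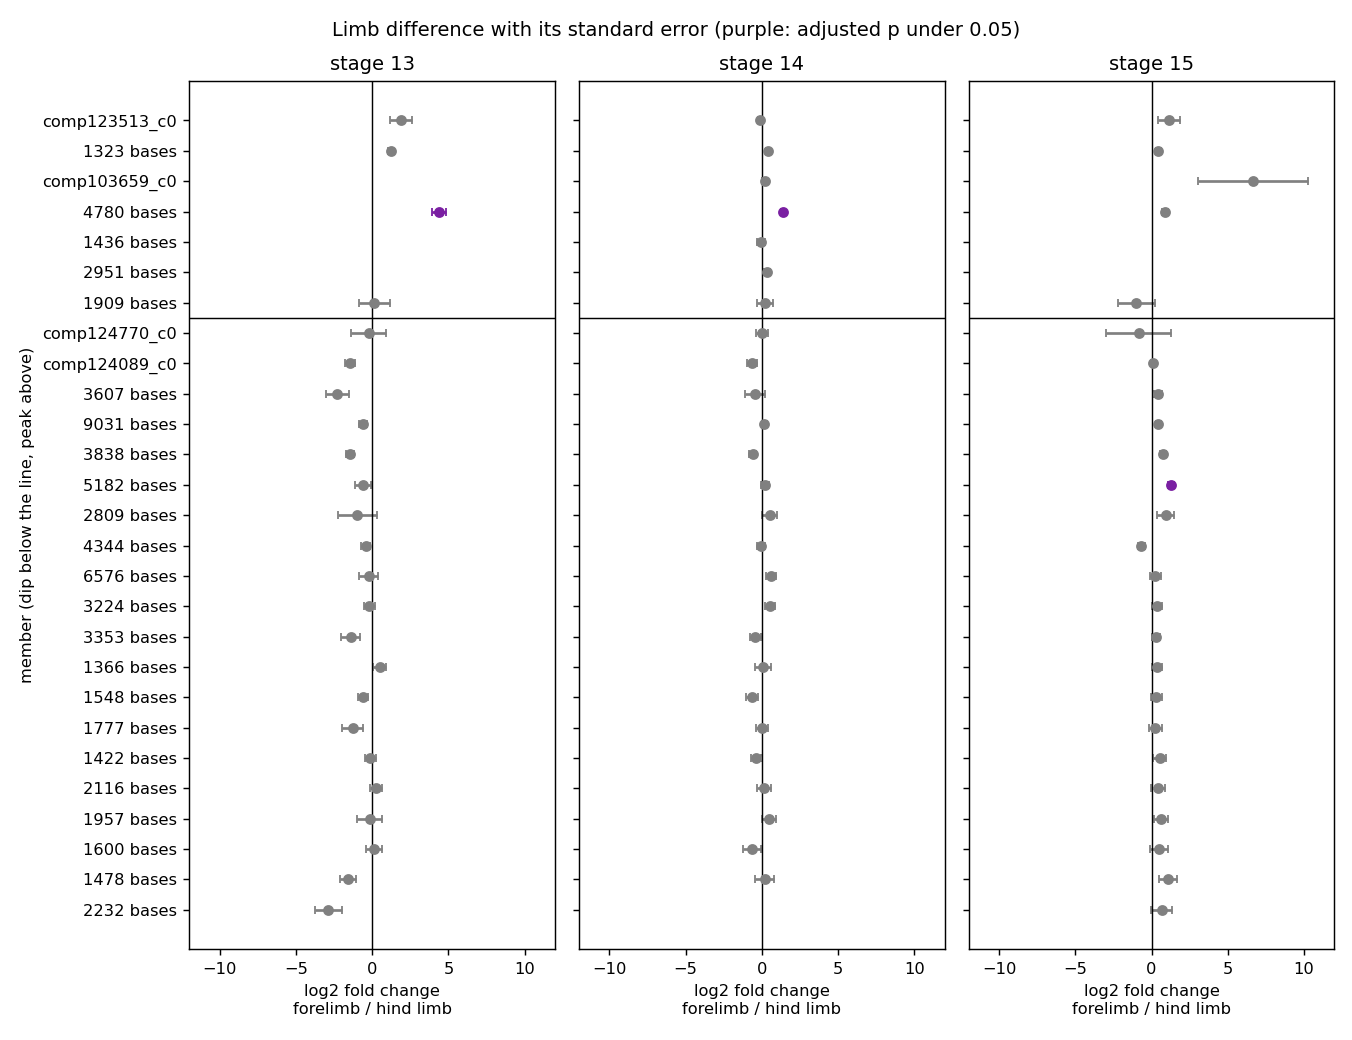
Difference between limbs at stages 13, 14 and 15 for each member tested, as the log2 fold change of forelimb over hind limb from edgeR with its standard error, with purple for an adjusted p under 0.05. The 4780-base peak gene passes at stages 13 and 14 and the 5182-base dip gene at stage 15.

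Over all members, with those that passed included, differences of group means are given as values with no test. At stage 13 the median difference of group means, forelimb minus hind limb, was 1.63 in peak members and -0.55 in dip members on the log2 scale, against -0.02 in all genes, and 7 of 7 peak and 3 of 20 dip members were higher in the forelimb. At stage 14 the medians were 0.31 and 0.09, and at stage 15 they were 0.95 and 0.37, with 18 of 20 dip members higher in the forelimb. Over all genes these medians were 0.01 at both stages. Several medians depended on single libraries. Without hind limb stage 13 replicate 1 the stage 13 median of dip members was -0.25, with 6 of 20 higher in the forelimb. Leaving out forelimb stage 13 replicate 2 and forelimb stage 15 replicate 2 gave peak members 0.47 at stage 13 and 0.15 at stage 15. At stage 13, 5 of 7 peak members were then higher in the forelimb. The stage 14 median of dip members was -0.19 without hind limb stage 14 replicate 3. Nearest to the threshold at stage 13 was the 1323-base peak gene, higher in the forelimb by 1.21 (SE 0.171, edgeR adjusted p = 0.0734).

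Stage 15 was also set against stage 13 to see how far the members returned. This net change is the sum of the steps that chose the genes, so it is given as a description with no p. In edgeR's fit across all genes, 4 of 27 members were past the threshold in the forelimb, where 18.8% of all genes were, and 6 of 25 in the hind limb, where 36.8% were. In the forelimb the group mean of comp124089_c0 was 2.68 higher at stage 15 than at stage 13 on the log2 scale, that of the 3607-base dip gene 2.82 higher, that of the 3838-base dip gene 1.80 higher and that of the 3353-base dip gene 1.72 higher. In the hind limb these differences were 1.10, 0.45, -0.45 and 0.46. The 4780-base peak gene was 0.49 higher at stage 15 in the forelimb and 3.50 higher in the hind limb. For comp123513_c0, in which forelimb stages 13 and 15 each divided, the hind limb difference was 0.94. Past the threshold in the hind limb were comp124089_c0, comp123513_c0 and the 4780-base gene, each higher at stage 15. The 1323-base peak gene was also past it, with a difference of 1.11. So were the 1777-base and 3224-base dip genes, with differences of -1.66 and -1.18.

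Over all members the median net change was 0.57 in the forelimb and 0.96 in the hind limb for peak genes. For dip genes it was 0.49 in the forelimb, where 15 of 20 ended higher, and -0.30 in the hind limb, where 14 of 20 ended lower. Without hind limb stage 13 replicate 1 the hind limb medians were 0.63 for peak genes, with 6 of 7 higher in place of 7, and -0.21 for dip genes, with 13 of 20 lower. Over the 11752 genes the medians were 0.04 and 0.02.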

How the data were processed

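The authors built a bat transcriptome from pooled limb reads with Trinity, retained sequences that matched SwissProt, and estimated expression with RSEM. The deposited expected counts are the authors' RSEM estimates of the reads from each gene, without normalization. The deposited FPKM values, with their credibility bounds, were scaled by the authors' RSEM run for effective length and library size. The strand setting and the versions of these tools are not given in the sources used here.

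CPM was computed from expected counts, and group means of log2(CPM + 0.5) chose the members. The rule, the members and the lists were chosen with earlier results of these data known. The gap between libraries, the lane comparison, the credibility bounds and the leaving out of doubted libraries were chosen after seeing the data. For each shape 2 identifiers are named, namely the member whose smallest step was largest and, of the others, the member with the highest mean CPM. The 4780-base and 5182-base genes were described because they passed a test between limbs, and other members were described by length after their values were seen.

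Tests between 2 groups used edgeR 4.0.16 (R 4.3.3) with robust quasi-likelihood fits and TMM normalization on expected counts rounded to whole numbers, over genes that reached a count of 10 in as many libraries as the smaller group holds. Another scaling moved the median of all genes by less than 0.1 on the log2 scale. The procedure was tested on simulated counts. A fit of the limb difference in net change, added after seeing the data, is not used, because the steps that chose the members make it up. Alternatives were DESeq2 1.42.0, RLE factors, other count filters, all 16 libraries in one fit, a replicate block, each library left out in turn, and other pseudocounts, minimums and steps of the rule. Tables were made in Python 3.11.15 with pandas 2.3.3 and numpy 2.4.6, and plots with matplotlib 3.10.9. Transcript sequences were not used here.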

Additional observations from a re-analysis of the deposited data

Results flagged for a closer look

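In the 9031-base dip gene the limbs moved in opposite directions from stage 13 to stage 15. Both forelimb stage 15 libraries (48.2 and 42.7 CPM) were above all 3 forelimb stage 13 libraries (36.9, 30.1 and 38.1 CPM), and both hind limb stage 15 libraries (33.1 and 33.0 CPM) were below all 3 hind limb stage 13 libraries (80.3, 38.8 and 43.4 CPM). The change in the forelimb minus that in the hind limb was 1.003, as group means on the log2 scale. A fit of this difference is not used, because the steps that chose the genes make it up. Among the 27 members this was the only such gene (3.7%), and among the 11752 genes past the minimums there were 55 (0.468%).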

How the results depend on the processing

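The rule gave 27 members, 17 with a minimum of 5 CPM, 70 with a step of 0.5 and 9 with a step of 1. Other pseudocounts, scalings, averages, minimums and within-wording steps gave between 21 and 40, and leaving out 1 library in turn gave between 21 and 36, with 4 peak members without forelimb stage 15 replicate 1 and 13 without forelimb stage 14 replicate 1. Without forelimb stage 13 replicate 2 and forelimb stage 15 replicate 2 together there were 36, of which 23 were among the 27.

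Members called between limbs at stage 13 numbered 1, where 0.0747% of all genes were called. DESeq2 called 4 members (0.862% of genes), no filter on low counts 3 (0.139%) and all 16 libraries in one fit 3 (0.327%). With 1 library left out between 0 and 4 members were called, against between 0.0329% and 7.84% of genes. At stage 14 the count was 1 (0.155% of genes) and 0 in the fit of all 16 libraries (0.0787%). It was 1 with any library left out, against between 0.0523% and 0.282% of genes. At stage 15 it was 1 (0.823%), 3 with DESeq2 (1.36%), 3 with no filter (1.71%) and 0 in the fit of all 16 (0.0424%). For stage 15 against 13 it was 4 in the forelimb (18.8% of genes) and 6 in the hind limb (36.8%). With 1 stage 13 library left out it was between 4 and 5 in the forelimb (between 15.1% and 27.8%). In the hind limb it was then between 4 and 9 (between 27.7% and 43%). These last counts rest on steps that chose the members. Counts without a stage 15 library are not given, because that leaves a group with 1 library, assumed to vary like the others. The cause of the changes was not tested.

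Differences that missed the threshold with all libraries changed sign under some alternatives. With 1 library left out, the forelimb difference of comp103659_c0 between stages 15 and 13 ranged from -5.60 to 7.74 and that of comp123513_c0 from -0.83 to 1.59. For comp124770_c0 it ranged from -5.17 to 0.25 in the forelimb and from -0.30 to 0.14 in the hind limb. The difference between limbs ranged from -0.20 to 7.67 for comp103659_c0 at stage 15, from -0.21 to 0.0233 for comp123513_c0 at stage 14 and from -0.95 to 0.39 for the 5182-base gene at stage 13. For comp124770_c0 it ranged from -0.86 to 0.35 at stage 13, from -0.35 to 0.40 at stage 14 and from -5.27 to 0.12 at stage 15. Its stage 14 difference, -0.01, was 0.0151 with DESeq2, 0.0104 with RLE factors and 0.0136 with no filter.

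Over all genes, calls at stage 13 numbered 11, and 127 with DESeq2, 34 with no filter, 54 with all 16 libraries and 1190 without forelimb stage 13 replicate 3. At stage 14 they numbered 23, 176, 35 and 13, and at stage 15 122, 202, 347 and 7. Correlations between limbs of deviations from the group means were taken for libraries with the same replicate number. They were 0.173, -0.0707 and 0.2 at stage 13, -0.0862, 0.618 and 0.0665 at stage 14 and 0.186 at stage 15. With different numbers they ranged from -0.225 to 0.143 at stage 13 and from -0.487 to 0.374 at stage 14. At stage 15, 2 libraries a group fix all pairs at the same size. Whether the numbers pair the libraries is not known. With a replicate block 2 members were called at stage 13 and 3 at stage 15, and 236 genes in all at stage 15. The block turned the sign of comp124770_c0, to 0.0937 between limbs at stage 14, and to 0.0428 in the forelimb and 0.18 in the hind limb between stages 15 and 13. All of these missed the threshold.

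With 2 or 3 libraries a group and 3 counts worth up to 0.221 CPM, small differences and members of low level could not be resolved.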

Other observations

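Outside the members, 3 genes divided the 16 libraries in the same way as the 5 members with this pattern, and they were shorter than the minimum length. The 770-base gene lay between 4.62 and 12.8 CPM in the 8 libraries in which the peak genes were high and between 0 and 0.221 CPM in the other 8. The 532-base gene lay between 0.923 and 2.04 CPM in the former and had a count of 0 in all of the latter. The 490-base gene lay between 1.07 and 2.18 CPM in the former and between 0 and 0.0593 CPM in the latter. With a gap of at least 3 on the log2 scale, 34 genes in the tables had such a gap, 5 of them with 8 libraries above it, and 4 with these same 8 libraries on 1 side. These 4 were all members, an overlap that follows largely from the steps that chose the members.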
